A study of Homo sapiens with 4 samples.

Results

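The genes described here are 34 transcripts of the mesenchymal and matrix-remodelling programme, measured by sequencing of messenger RNA in A549 cells, an established human line derived from lung carcinoma epithelium and grown in DMEM. They were taken by gene symbol from the deposited count table and comprise 5 transcription factors of the epithelial-to-mesenchymal transition (EMT), 7 genes of intermediate filaments and actin-binding proteins, 7 collagens, 4 matrix glycoproteins, 2 collagen cross-linking enzymes, 3 matrix metalloproteases, 3 of their inhibitors, and 3 genes of plasminogen activation. Of the 34 genes, 33 were found among the 15037 genes of the table and 32 had enough counts to be tested. MMP1, an interstitial collagenase, is not analysed here, and MYL9, a regulatory myosin light chain, is given only by its counts. The libraries were 2 of A549 cells with a knockdown of PSME4 (PSME4 KD) and 2 of A549 cells with a knockdown of RFP (control KD), so that all 4 libraries carried a knockdown. PSME4 is an activator that caps the core particle of the proteasome, and the series asked which messenger RNAs differ after its depletion. The labels do not say how the knockdown was made, whether a clone or a pool was used, or whether replicate libraries stem from different cultures. The p-values therefore reflect the spread among these libraries alone, which may be technical.

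During EMT, transcription factors of the SNAI, ZEB and TWIST families repress junction genes of epithelial cells, and the cells acquire vimentin filaments, fibronectin, fibrillar collagens and an actin cytoskeleton that contracts. Matrix is then built by secretion and cross-linking of collagen and is cut by metalloproteases and by plasmin, each held in check by its own inhibitors. Lung carcinoma cell lines lie at different points between the epithelial and the mesenchymal state, and A549 is known to respond to transforming growth factor beta (TGF-beta) by moving along it.

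Depth ranged from 14845701 to 15208588 counts in the PSME4 KD libraries and from 11766371 to 11769392 counts in the control KD libraries. PSME4 itself stood at 75.3 and 85.1 CPM in PSME4 KD libraries 1 and 2, against 158 and 180 CPM in control KD libraries 1 and 2, where CPM is the count scaled to library size and TMM factor, per 1000000. Its log2 fold change, PSME4 KD over control KD, was −1.08 (SE 0.20, adjusted p = 0.000855 by edgeR), and of the fits with 1 library left out it was called without PSME4 KD library 2 and in no other. The 6 epithelial markers were all among the genes analysed and summed to 5160 and 4006 CPM in PSME4 KD and 4583 and 3701 CPM in control KD. Most of that sum was KRT18, a keratin of simple epithelia, at 4119 and 3090 CPM in PSME4 KD and 3570 and 2820 CPM in control KD. EPCAM was low, at 7.88 and 6.76 CPM in PSME4 KD and 6.14 and 5.42 CPM in control KD, as was KRT19, at 3.15 and 1.71 CPM in PSME4 KD and 2.94 and 3.78 CPM in control KD. None of 6 epithelial markers passed in edgeR, DESeq2 or limma voom, and none had an unadjusted p under 0.05 by edgeR. Of 8 fibroblast and pericyte markers 3 were among the genes analysed, and they summed to 12.6 and 14.2 CPM in PSME4 KD against 12.9 and 13.4 CPM in control KD. PDGFRA among them was lower in PSME4 KD, at 0.723 and 1.31 CPM against 2.60 and 2.58 CPM in control KD (log2 fold change −1.34, SE 0.43, adjusted p = 0.0453 by edgeR, and 0.0713 once libraries were corrected for GC content), and it was not called with any 1 library left out. LUM, another of the 3, was at 8.41 and 7.94 CPM in PSME4 KD against 3.98 and 7.22 CPM in control KD, without a call (0.54, SE 0.30, adjusted p = 0.258 by edgeR), and with that correction edgeR called it higher (0.88, with an adjusted p of 0.0391). The third, THY1, did not pass (−0.25, SE 0.34). Of 5 endothelial and 5 immune markers, 0 and 2 were among the genes analysed, and the immune ones summed to 39.3 and 39.4 CPM in PSME4 KD against 33.8 and 28.5 CPM in control KD. In bulk RNA such as this, fewer cells with a transcript and less of it per cell cannot be told apart.

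Among the 32 tested genes 3 rose and 4 fell in PSME4 KD cells, and 25 did not pass the test. The genes that rose were TAGLN, COL11A1 and COL1A1, and those that fell were TIMP3, TWIST1, SERPINE2 and CALD1. By RefSeq on GRCh38.p14, the genes that rose lie at chr11:117199294-117207465 (TAGLN), chr1:102876473-103108522 (COL11A1) and chr17:50184101-50201631 (COL1A1). Those that fell lie at chr22:32801705-32863041 (TIMP3), chr7:19113047-19117636 (TWIST1), chr2:223975045-224039286 (SERPINE2) and chr7:134711499-134970729 (CALD1). Over all 13497 tested genes 10.6% passed, 4.56% higher and 6.00% lower, while 21.9% of the 32 genes passed. The genes were chosen with earlier results of these data known, so the shares in this paragraph are a description and not a test. An unadjusted p under 0.05 was found for 37.5% of the 32 genes and for 26.2% of all genes. The median log2 fold change of the 32 genes was 0.14, against −0.0021 over all tested genes, with 18 genes above 0 and 14 below. The libraries of PSME4 KD and control KD did not overlap for 21 of the 32 genes (65.6%), 12 higher and 9 lower in PSME4 KD, against 55.0% of all tested genes. Fold changes leaned with the base composition of the transcript, since 12 of the 16 tested genes with a GC content above the median of 52.2% lay above 0 and 10 of the 16 below it lay below 0. Spearman's rho between GC content and log2 fold change was 0.42 over these 32 genes and 0.40 over all genes with a known GC content, a description across genes that share the same 4 libraries. Replicates of control KD also differed along GC content, with rho 0.49 for library 1 minus library 2. The same difference between PSME4 KD replicates gave rho −0.099. The lean with GC content is thus not particular to the comparison of the groups, and its cause was not tested. After each library was corrected for GC content, the median of the 32 genes was 0.018, with 2 genes higher and 4 lower.

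**Figure D1:**
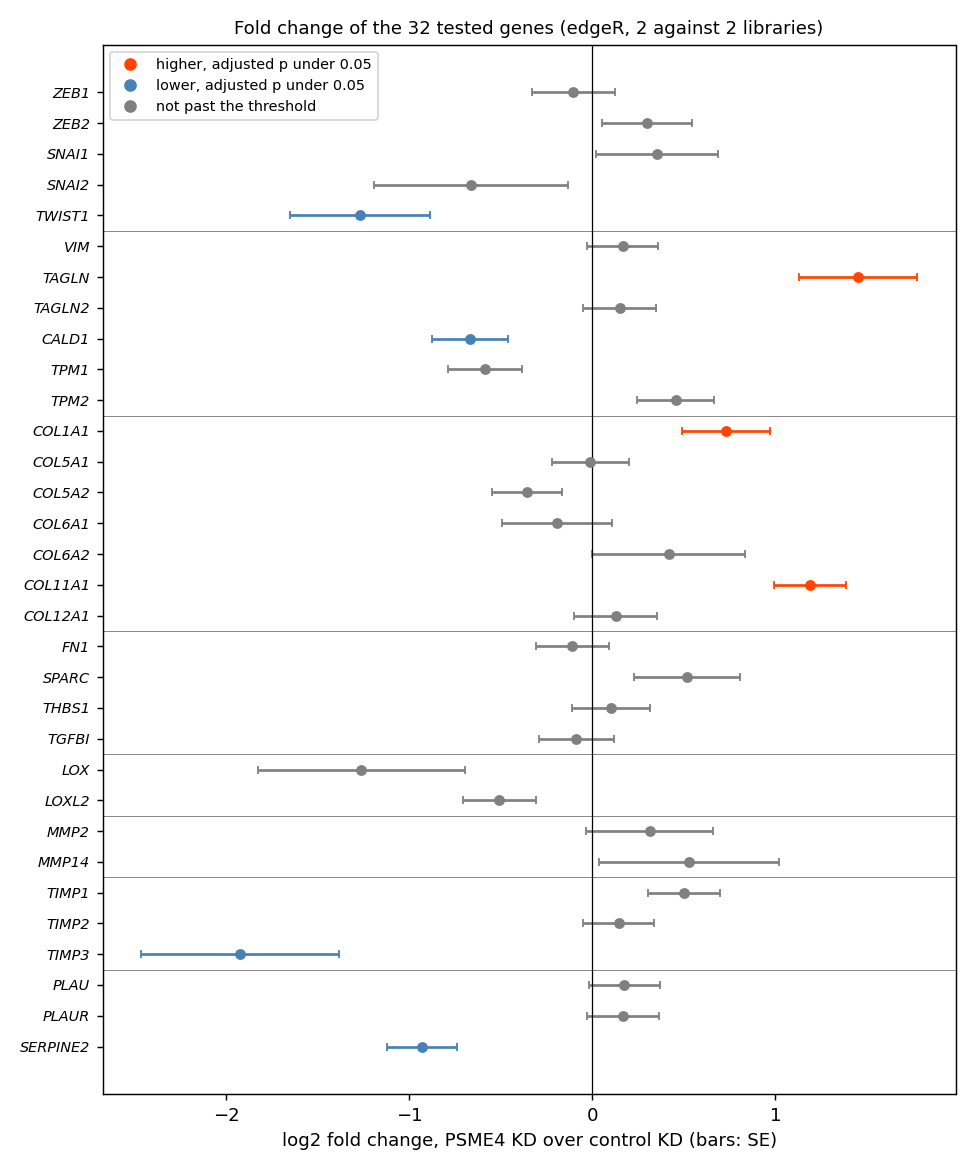
Log2 fold change of each tested gene, PSME4 KD over control KD, in edgeR with 2 libraries in each group, ordered by role, where points are fitted values and bars are standard errors. The 3 genes in orange (TAGLN, COL1A1 and COL11A1) and the 4 in blue (TWIST1, CALD1, TIMP3 and SERPINE2) passed an adjusted p of 0.05, and the 25 in grey did not.

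The levels of the genes spanned more than 3 orders of magnitude. Per kilobase of the longest annotated transcript, TGFBI, a secreted matrix protein induced by TGF-beta, was the most abundant of the 33 genes at 598 CPM in PSME4 KD and 635 CPM in control KD. It was followed in PSME4 KD by VIM at 397 CPM per kilobase, against 353 in control KD, and by TAGLN2 at 332, against 299 in control KD. In control KD the order differed, with TPM1 at 425 CPM per kilobase next after TGFBI, against 283 in PSME4 KD. The lowest in PSME4 KD was LOX at 0.0837 CPM per kilobase, against 0.203 in control KD, where MYL9 was the lowest at 0.107, against 0.151 in PSME4 KD. MYL9 had 9 and 4 counts in PSME4 KD libraries 1 and 2, and 6 and 1 counts in control KD libraries 1 and 2, too few to test. In all, 5 of the 33 genes had fewer than 100 counts over the 4 libraries together.

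**Figure D2:**
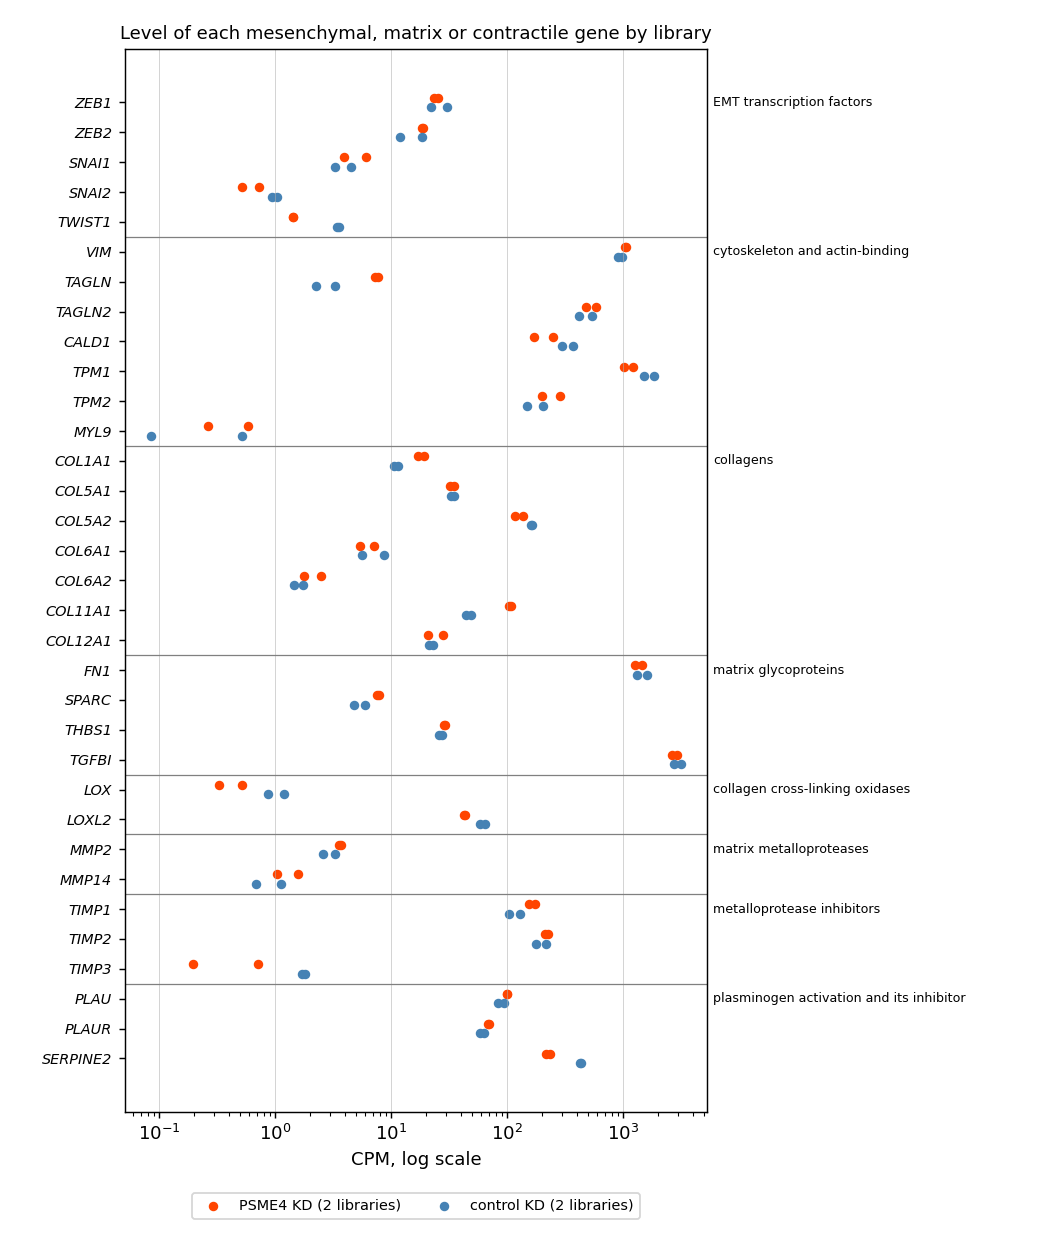
Level of each of the 33 genes in each library, in CPM on a log scale and grouped by role, with PSME4 KD libraries in orange above control KD libraries in blue. The groups do not overlap for 21 of the 32 tested genes, among them TWIST1, TAGLN, COL11A1, TIMP3 and SERPINE2, of which TWIST1, TAGLN and TIMP3 lie below 10 CPM in every library.

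Of the 5 EMT transcription factors, TWIST1, a basic helix-loop-helix factor, fell and the other 4 did not pass. TWIST1 had 22 and 22 counts in PSME4 KD libraries 1 and 2, or 1.45 and 1.44 CPM, against 41 and 40 counts in control KD libraries 1 and 2, or 3.55 and 3.44 CPM. The libraries of each group thus lay close together and the groups did not overlap. The log2 fold change was −1.27 (SE 0.38, adjusted p = 0.0319 by edgeR), and −1.50 after the GC correction (edgeR, adjusted p = 0.0120). ZEB1 and ZEB2 encode zinc finger repressors of E-cadherin and were the more abundant factors. ZEB1 stood at 25.6 and 23.4 CPM in PSME4 KD against 22.3 and 30.3 CPM in control KD, so that the control KD libraries enclosed those of PSME4 KD, and its log2 value of −0.10 (SE 0.23) turned to 0.16 after the GC correction. ZEB2 was at 18.6 and 18.8 CPM in PSME4 KD against 11.9 and 18.5 CPM in control KD (0.30, SE 0.25). SNAI1, which initiates the transition in many cells, was at 6.11 and 3.94 CPM in PSME4 KD against 3.29 and 4.56 CPM in control KD (0.36, SE 0.33). SNAI2, its close relative, had 11 and 8 counts in PSME4 KD and 11 and 12 in control KD, and did not pass (−0.66, SE 0.53).

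Of the 7 genes of the cytoskeleton 6 were tested, and 1 rose (TAGLN), 1 fell (CALD1) and 4 did not pass. TAGLN encodes transgelin, an actin-binding protein of smooth muscle and of cells stimulated with TGF-beta. It had 118 and 112 counts in PSME4 KD libraries 1 and 2, or 7.75 and 7.35 CPM, against 26 and 38 counts in control KD libraries 1 and 2, or 2.25 and 3.27 CPM. Both PSME4 KD libraries lay above both control KD libraries, with a fold of 2.73 and a log2 fold change of 1.45 (SE 0.32, adjusted p = 0.00508 by edgeR). After the GC correction the value was 1.20 (edgeR, adjusted p = 0.0162). TAGLN shares its locus on chromosome 11 with PCSK7, and the treatment of overlapping genes in the counting is not given in the sources. Its paralog TAGLN2 was at 586 and 479 CPM in PSME4 KD against 542 and 418 CPM in control KD (0.15, SE 0.20, and −0.073 after the GC correction).

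CALD1 encodes caldesmon, which binds actin and tropomyosin and restrains the myosin motor. It was at 248 and 172 CPM in PSME4 KD against 368 and 299 CPM in control KD, lower in both PSME4 KD libraries, with a log2 fold change of −0.67 (SE 0.21, adjusted p = 0.0358 by edgeR). With the GC correction it was no longer called (−0.52, with an adjusted p of 0.108 by edgeR), and the value was −0.40 without PSME4 KD library 2. Tropomyosins wind along actin filaments, and none of the 4 tested genes passed in the edgeR fit reported here. TPM1 was at 1217 and 1026 CPM in PSME4 KD against 1835 and 1528 CPM in control KD (log2 fold change −0.58, SE 0.20, adjusted p = 0.0603 by edgeR). TPM1 did pass by DESeq2 (adjusted p = 0.0386 over 10955 genes) and limma voom (adjusted p = 0.0472 over 13497 genes). By edgeR it also passed with no filter (0.0474) and a filter of 50 counts in 2 libraries (0.0449). A replicate block gave 0.0342 by edgeR, and 0.0326 with the GC correction. It did not pass by edgeR with DESeq2's size factors (0.0617), library size alone (0.0604) or the GC correction alone (0.0787). In the authors' deposited table its adjusted p was 0.0513. TPM2 was at 285 and 199 CPM in PSME4 KD against 205 and 148 CPM in control KD, where the groups overlapped (0.45, SE 0.21, adjusted p = 0.165 by edgeR). In the wider lists, TPM3 was at 408 and 422 CPM in PSME4 KD against 569 and 586 CPM in control KD (−0.48, SE 0.19, adjusted p = 0.107 by edgeR), and TPM4 had a log2 fold change of −0.28 (SE 0.20, adjusted p = 0.370 by edgeR). VIM, the intermediate filament protein used as the standard mesenchymal marker, was at 1070 and 1044 CPM in PSME4 KD against 910 and 974 CPM in control KD (0.17, SE 0.19, adjusted p = 0.629 by edgeR).

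One of the starts of CALD1 in RefSeq carries an AP-1 site, the motif bound by JUN and FOS factors, and is printed here because CALD1 fell. The window holds 250 bases before the start and 50 from it, on the plus strand of chromosome 7 (GRCh38.p14), chr7:134711249-134711548. The AP-1 site, searched as TGANTCA on both strands, is in capitals at 126 to 120 bases before the start.
CALD1: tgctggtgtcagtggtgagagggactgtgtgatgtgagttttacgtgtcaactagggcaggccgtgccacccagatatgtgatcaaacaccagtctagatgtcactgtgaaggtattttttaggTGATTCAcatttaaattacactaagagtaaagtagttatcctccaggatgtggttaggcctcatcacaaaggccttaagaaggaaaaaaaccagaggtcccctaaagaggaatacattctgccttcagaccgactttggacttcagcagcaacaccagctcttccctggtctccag
CALD1 has 4 such windows in the table, and the other 3 held no match. Over all 35116 RefSeq windows of this kind 7.71% held the motif, as did 4 of 39 windows of the 22 genes described here that are in the table. A match is a description of the letters and not a site shown to be bound.

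Among the 7 collagens COL11A1 and COL1A1 rose and the other 5 did not pass. COL11A1 encodes a chain of the fibrillar collagen XI, a minor collagen that sits inside growing fibrils and is used as a marker of stromal activation in carcinomas. It was at 104 and 109 CPM in PSME4 KD libraries 1 and 2 (1583 and 1655 counts), against 44.0 and 49.2 CPM in control KD libraries 1 and 2 (509 and 572 counts). The groups were separated by more than the spread within either, with a fold of 2.28 and a log2 fold change of 1.19 (SE 0.20, adjusted p = 0.000327 by edgeR). With the GC correction the value was again 1.19 (edgeR, adjusted p = 0.000176). COL1A1 encodes the main chain of collagen I, the bulk collagen of connective tissue. It was at 17.3 and 19.4 CPM in PSME4 KD against 10.6 and 11.4 CPM in control KD, without overlap. The log2 fold change of 0.73 (SE 0.24) passed narrowly by edgeR (adjusted p = 0.0479) and not by limma voom (0.0528), DESeq2 (0.0595) or edgeR after the GC correction (0.49, adjusted p = 0.159).

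Collagen V, a regulator of fibril diameter whose chains can assemble with those of collagen XI, did not pass in either direction. COL5A2 was at 137 and 117 CPM in PSME4 KD against 161 and 164 CPM in control KD, lower in both PSME4 KD libraries (−0.36, SE 0.19, adjusted p = 0.242 by edgeR). COL5A1 was at 32.1 and 34.7 CPM in PSME4 KD against 34.6 and 32.7 CPM in control KD, so that the groups overlapped (−0.011, SE 0.21). The pair of collagen VI genes, which both lie on chromosome 21 and encode chains of the same beaded filament, had values of −0.19 (COL6A1, SE 0.30) and 0.42 (COL6A2, SE 0.42). Their levels were low, at 7.16 and 5.38 CPM for COL6A1 in PSME4 KD against 8.65 and 5.68 CPM in control KD. COL12A1, a collagen on the surface of fibrils, was at 20.9 and 27.8 CPM in PSME4 KD against 21.4 and 23.2 CPM in control KD (0.13, SE 0.23).

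The promoter window of COL11A1 is printed because this gene passed by edgeR, DESeq2 and limma voom and after the GC correction. It lies on the minus strand of chromosome 1 (GRCh38.p14), chr1:103108473-103108772, and is written from 250 bases before the start.
COL11A1: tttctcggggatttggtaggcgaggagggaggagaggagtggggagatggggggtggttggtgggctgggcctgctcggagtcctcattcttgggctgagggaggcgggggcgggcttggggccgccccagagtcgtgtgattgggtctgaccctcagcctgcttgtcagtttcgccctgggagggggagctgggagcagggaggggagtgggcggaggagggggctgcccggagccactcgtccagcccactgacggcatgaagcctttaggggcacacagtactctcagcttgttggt
It held none of the letters searched, namely the AP-1 site, the E2-box CACCTG to which SNAI and ZEB factors bind, and the CArG box to which serum response factor binds. The E2-box was present in 20.6% of all RefSeq windows and in 6 of the 39 windows of these genes, which belong to LOX, PLAU, TAGLN2 and ZEB1.

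None of the 4 matrix glycoproteins passed in edgeR, DESeq2 or limma voom, and none had an unadjusted p under 0.05 by edgeR. FN1, which encodes fibronectin, was at 1271 and 1452 CPM in PSME4 KD against 1608 and 1326 CPM in control KD, with overlapping groups (−0.11, SE 0.20, and 0.031 after the GC correction). TGFBI was at 2664 and 2910 CPM in PSME4 KD against 3143 and 2775 CPM in control KD (−0.086, SE 0.20). THBS1, a thrombospondin that can activate latent TGF-beta, was at 28.8 and 29.0 CPM in PSME4 KD against 26.1 and 27.7 CPM in control KD (0.10, SE 0.21). SPARC, a collagen-binding protein of remodelling matrix, was at 7.88 and 7.55 CPM in PSME4 KD against 4.85 and 5.93 CPM in control KD, higher in both PSME4 KD libraries but short of the threshold (0.52, SE 0.29, adjusted p = 0.260 by edgeR).

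Both collagen cross-linking oxidases were lower in each PSME4 KD library than in each control KD library, and neither passed. The groups did not overlap, in either direction, for 55.0% of all tested genes. LOXL2, a lysyl oxidase relative that also acts on the EMT factor SNAI1, was at 42.9 and 43.6 CPM in PSME4 KD against 64.9 and 58.1 CPM in control KD. Its log2 fold change of −0.51 (SE 0.20) had an adjusted p of 0.0995 by edgeR, and after the GC correction it passed (−0.75, adjusted p = 0.00733 by edgeR). LOX itself had 8 and 5 counts in PSME4 KD and 10 and 14 counts in control KD (−1.26, SE 0.57, adjusted p = 0.151 by edgeR). By limma voom 0 of the 2 passed, as did 0 of the 1 to which DESeq2 gave an adjusted p. Both had an unadjusted p under 0.05 by edgeR, as did 26.2% of all tested genes.

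Neither of the 2 tested metalloproteases passed. MMP2, a gelatinase, was at 3.74 and 3.54 CPM in PSME4 KD against 2.60 and 3.27 CPM in control KD (0.31, SE 0.35). MMP14, a membrane-anchored collagenase, had 16 and 24 counts in PSME4 KD against 13 and 8 counts in control KD (0.53, SE 0.49). Limma voom called neither, DESeq2 gave no adjusted p for them, and no unadjusted p was under 0.05 by edgeR.

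Of the 3 tissue inhibitors of metalloproteases, TIMP3, which binds to the matrix, fell. It had 3 and 11 counts in PSME4 KD libraries 1 and 2, or 0.197 and 0.722 CPM, against 21 and 20 counts in control KD libraries 1 and 2, or 1.82 and 1.72 CPM. All PSME4 KD values were below those of control KD, with a log2 fold change of −1.92 (SE 0.54, adjusted p = 0.0223 by edgeR), although the counts were few and the PSME4 KD libraries differed from each other. Without PSME4 KD library 2 the value was −3.08 and without PSME4 KD library 1 it was −1.28, with no call in either fit. TIMP3 lies inside SYN3 on chromosome 22, so reads of both may have been shared or dropped. TIMP1, a secreted inhibitor, stood at 156 and 175 CPM in PSME4 KD against 130 and 104 CPM in control KD, higher in both PSME4 KD libraries (0.50, SE 0.20) without passing (adjusted p = 0.0987 by edgeR). TIMP2 was at 224 and 212 CPM in PSME4 KD against 216 and 178 CPM in control KD (0.14, SE 0.19, and −0.016 after the GC correction).

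Plasminogen activation rests on the urokinase PLAU, its receptor PLAUR and inhibitors that include SERPINE2, also called protease nexin. SERPINE2 fell to 219 and 236 CPM in PSME4 KD (3327 and 3597 counts), against 430 and 436 CPM in control KD (4970 and 5073 counts). Libraries of a group lay close together, and the groups did not overlap. The log2 fold change was −0.93 (SE 0.19, adjusted p = 0.00265 by edgeR), which is 1.91-fold lower, and it was −0.75 after the GC correction (edgeR, adjusted p = 0.0101). PLAU was at 101 and 99.3 CPM in PSME4 KD against 93.4 and 83.6 CPM in control KD (0.18, SE 0.19). PLAUR was at 69.6 and 68.4 CPM in PSME4 KD against 63.8 and 59.1 CPM in control KD (0.17, SE 0.20, and −0.044 after the GC correction). Both were higher in each PSME4 KD library than in each control KD library, and neither passed. Over all tested genes the groups did not overlap for 55.0%, in either direction.

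The calls were set against the authors' deposited table, which gives log2 fold changes as control KD over PSME4 KD, so that its signs run the other way. It holds a pair of adjusted p columns, and the values here are from the one without a further correction. In the authors' deposited table COL11A1 had −1.20 with an adjusted p of 9.122e-07, TAGLN −1.46 with 0.0116 and SERPINE2 0.92 with 5.484e-05. In the authors' deposited table CALD1 (0.66, adjusted p = 0.0546), COL1A1 (−0.74, 0.0782), TWIST1 (1.27, 0.138) and TIMP3 (1.94, 0.149) had the same direction and did not pass 0.05. In the other column of the authors' deposited table, named as following an FDR correction, COL11A1 (0.00624) and SERPINE2 (0.0394) passed 0.05, while TAGLN (0.331) and the other 4 did not. DESeq2 run here on the same counts gave CALD1 an adjusted p of 0.0411. With 1 library left out, edgeR called 0 of the 7 genes without PSME4 KD library 1, 2 without PSME4 KD library 2 (COL11A1 and TAGLN), 0 without control KD library 1 and 1 without control KD library 2 (COL11A1). All 7 genes kept their direction in these fits, which is no separate sign of stability. For each of the 7, both PSME4 KD values lay on the same side of both control KD values. Leaving out 1 library could therefore hardly turn the direction.

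**Figure D3:**
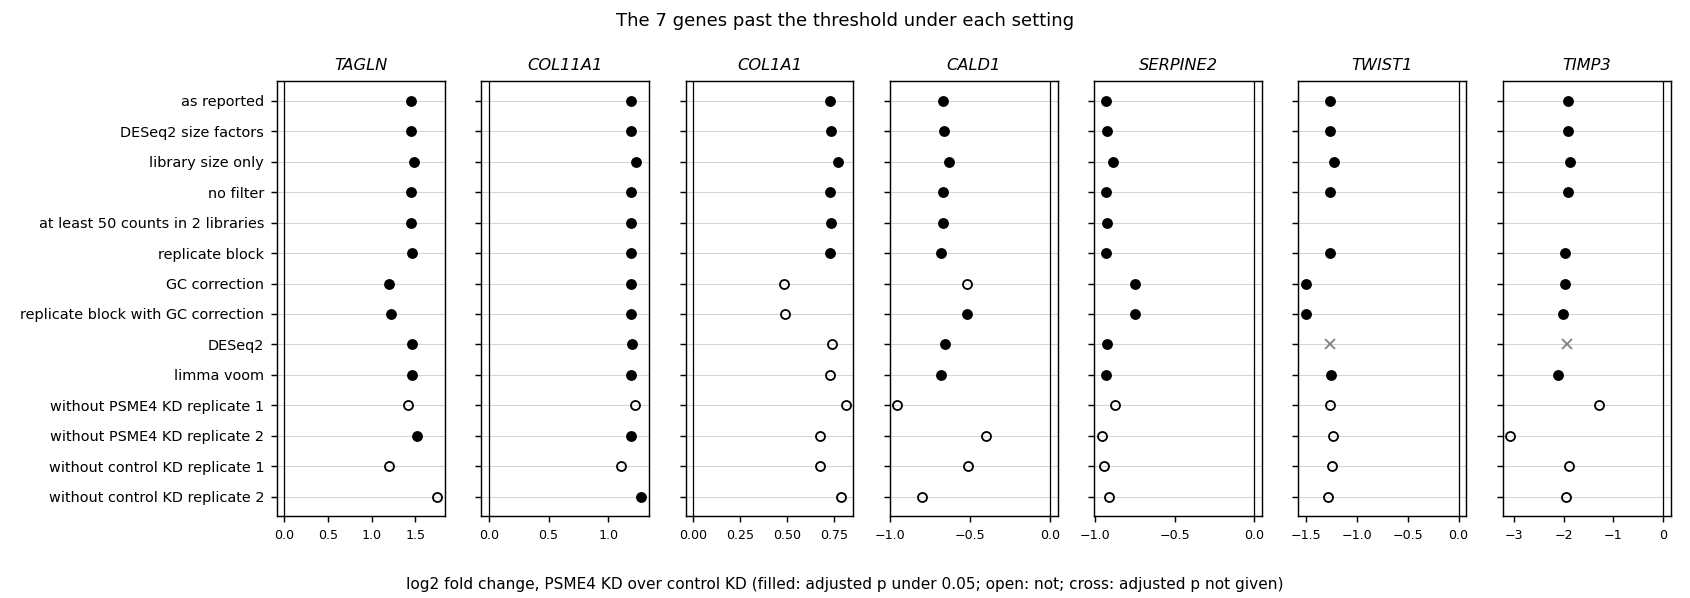
Log2 fold change, PSME4 KD over control KD, of each of the 7 genes past the threshold under each setting (rows), where filled points passed an adjusted p of 0.05, open points did not, and crosses mark DESeq2 values with no adjusted p. COL11A1, TAGLN and SERPINE2 kept their calls in each setting that used all 4 libraries, while COL1A1 lost its call under 4 of them and CALD1 under the GC correction.

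A wider set of 123 genes with the same roles, also chosen with earlier results of these data known, was counted in the same fit. Of 76 that could be tested 8 rose and 1 fell, and their median log2 fold change was 0.24, beside −0.0021 over all tested genes. The share called was 11.8%, close to the 10.6% over all tested genes, and the share called higher was 10.5%, against 4.56% over all tested genes. Of 27 contractile and actin-binding genes 4 rose, with 20 above 0, a median of 0.37 and 11 at an unadjusted p under 0.05, and edgeR, DESeq2 and limma voom each called 0 lower. The 4 are 14.8% of this list, against 4.56% called higher over all tested genes, and 40.7% of the list had an unadjusted p under 0.05, against 26.2% of all tested genes. After the GC correction 3 were called higher, since MRTFA was lost. The 20 above 0 and the median of 0.37 are from the fit without that correction. Over all genes fold changes leaned with GC content (Spearman's rho 0.40), as did the difference of control KD library 1 minus library 2 (rho 0.49). Of 14 collagen-processing enzymes 2 rose, of 15 matrix glycoproteins 1 rose and 1 fell, and of 12 proteases and inhibitors 1 rose. None of 5 further EMT regulators or 3 further collagens passed in edgeR, DESeq2 or limma voom, with 1 and 0 genes at an unadjusted p under 0.05 by edgeR. After the GC correction edgeR called 1 of these 5 EMT regulators lower, and 0 of the 3 collagens in either direction. Of the 9 calls, edgeR kept 4 without PSME4 KD library 2 (MYOCD, CNN2, MMP24 and ACTN1) and 0 without any other single library.

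The contractile genes that rose included MYOCD and MRTFA, coactivators of serum response factor (SRF), which switches on smooth muscle and actin genes through CArG boxes. MYOCD, normally a factor of heart and smooth muscle, was at 36.4 and 49.9 CPM in PSME4 KD against 13.5 and 19.7 CPM in control KD (log2 fold change 1.38, SE 0.24, adjusted p = 0.000441 by edgeR). MRTFA, which responds to the pool of free actin, was at 14.7 and 15.3 CPM in PSME4 KD against 9.34 and 7.65 CPM in control KD (0.82, SE 0.25, adjusted p = 0.0357 by edgeR). With the GC correction MRTFA was no longer called (0.59, with an adjusted p of 0.0823 by edgeR). SRF itself was at 10.8 and 9.32 CPM in PSME4 KD against 7.79 and 6.11 CPM in control KD and did not pass (0.54, SE 0.27, adjusted p = 0.213 by edgeR; it is named here after its values were seen).

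Calponin CNN2, which binds actin, was at 28.8 and 25.4 CPM in PSME4 KD against 11.7 and 10.5 CPM in control KD (1.29, SE 0.23, adjusted p = 0.000837 by edgeR). ACTN1, the actin cross-linker alpha-actinin, was at 322 and 205 CPM in PSME4 KD against 150 and 149 CPM in control KD (0.82, SE 0.21, adjusted p = 0.0131 by edgeR). The value of ACTN1 was 0.46 without PSME4 KD library 1, which was the higher of its group, and it had no call then. Of the smooth muscle markers, ACTA2 was the single one of 5 among the genes analysed, and that list summed to 55.2 and 60.9 CPM in PSME4 KD against 51.7 and 46.3 CPM in control KD.

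The promoter windows of CNN2 and ACTN1 are printed because both genes rose and each has a window with a CArG box, in capitals. The CNN2 window lies on the plus strand of chromosome 19 (GRCh38.p14), chr19:1026358-1026657, with the CArG box 89 to 80 bases before the start. The ACTN1 window is 1 of 4 for this gene, on the minus strand of chromosome 14, chr14:68977517-68977816, with the CArG box 171 to 162 bases before the start.
CNN2: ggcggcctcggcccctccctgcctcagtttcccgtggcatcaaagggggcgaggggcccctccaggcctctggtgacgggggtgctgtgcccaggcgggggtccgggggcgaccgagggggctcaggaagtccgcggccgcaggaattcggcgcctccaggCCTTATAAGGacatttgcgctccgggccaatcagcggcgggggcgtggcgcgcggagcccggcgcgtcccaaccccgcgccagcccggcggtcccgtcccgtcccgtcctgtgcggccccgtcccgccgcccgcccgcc
ACTN1: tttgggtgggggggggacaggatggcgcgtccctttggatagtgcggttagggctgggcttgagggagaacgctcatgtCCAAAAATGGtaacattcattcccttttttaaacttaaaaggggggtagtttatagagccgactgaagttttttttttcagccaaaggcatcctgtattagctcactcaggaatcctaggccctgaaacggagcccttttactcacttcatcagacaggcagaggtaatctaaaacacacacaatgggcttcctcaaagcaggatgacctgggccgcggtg
A CArG box was found in 1.29% of all 35116 RefSeq windows, in 2 of 11 windows of the 6 genes with a window among the 9 of the wider lists that passed the test (the other genes of those lists were not searched), and in 0 of 39 windows of the 22 named genes with one. The other ACTN1 windows held no CArG box. These matches describe the letters, and binding at them was not tested. TAGLN, COL1A1, TWIST1 and MYOCD have no window in the table.

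Among the enzymes that mature collagen, P4HA3, a catalytic subunit of prolyl hydroxylase, was at 57.7 and 69.6 CPM in PSME4 KD against 31.8 and 30.8 CPM in control KD (1.03, SE 0.21, adjusted p = 0.00208 by edgeR). PCOLCE, an enhancer of the cleavage of the procollagen tail, was at 3.81 and 2.95 CPM in PSME4 KD against 1.30 and 1.29 CPM in control KD (1.38, SE 0.40, adjusted p = 0.0269 by edgeR), and it did not pass after the GC correction (1.15, edgeR, adjusted p = 0.0587). VCAN, the large proteoglycan versican, was at 1278 and 1496 CPM in PSME4 KD against 650 and 953 CPM in control KD (0.79, SE 0.21, adjusted p = 0.0166 by edgeR). MMP24, a membrane-anchored metalloprotease, was at 46.6 and 39.8 CPM in PSME4 KD against 18.8 and 19.3 CPM in control KD (1.18, SE 0.22, adjusted p = 0.000901 by edgeR). SPOCK1, a proteoglycan related to SPARC, fell to 57.9 and 59.2 CPM in PSME4 KD, against 91.3 and 118.5 CPM in control KD (−0.84, SE 0.20, adjusted p = 0.00860 by edgeR). Of the 9 genes of the wider lists that passed, all but CNN2 overlap another RefSeq gene at their loci.

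**Figure D4:**
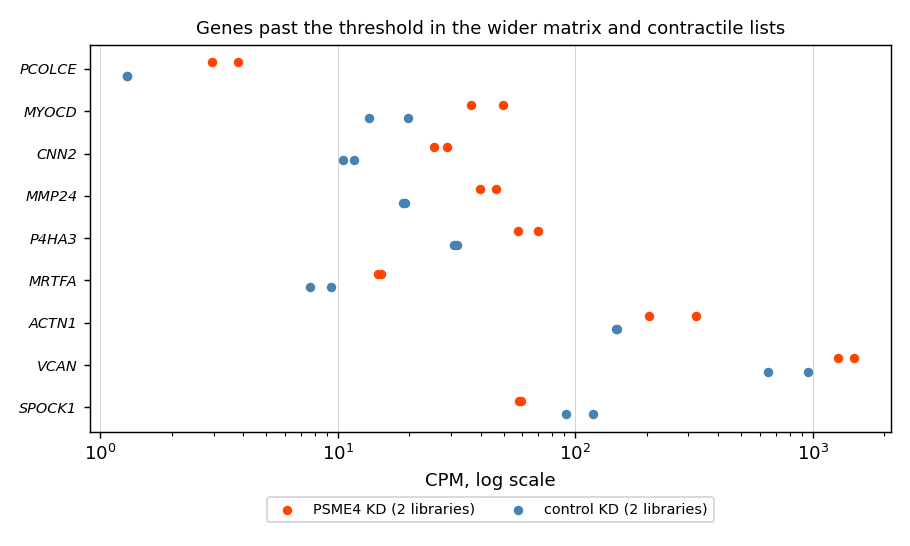
Level of each of the 9 genes of the wider lists that passed the threshold, in CPM on a log scale, with PSME4 KD libraries in orange above control KD libraries in blue. For 8 genes both PSME4 KD libraries lie to the right of both control KD libraries, and for SPOCK1 they lie to the left.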

How the data were processed

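RNA of 4 A549 libraries was enriched on poly(A) beads, and libraries were prepared with Lexogen's SENSE mRNA kit, per the labels' protocols. The submitters' processing notes name STAR, cutadapt, DESeq2 and genome build hg38; for versions, read counter, strand setting and annotation nothing is given in the sources. The deposited table holds raw counts per gene, per the file headers. The authors also deposited signal values (counts divided by 1 size factor per library), log2 values (a regularised log) and their own comparison with p-values and adjusted p-values, per the file headers; the signal and log2 values of libraries were not used. The largest count of each row over the libraries was at least 6, so low rows had been removed.

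The tests were run on the counts in edgeR 4.0.16 under R 4.3.3: filterByExpr (13497 of 15037 genes kept), TMM, glmQLFit and glmQLFTest with group as sole term (2 residual degrees of freedom), and Benjamini-Hochberg adjustment over all tested genes with a threshold of 0.05. A standard error is the absolute log2 fold change over the root of F. Groups and replicate numbers come from the sample titles, and replicate libraries were further apart than counting noise (chi-square per degree of freedom 18.0 in PSME4 KD and 22.3 in control KD). CPM per kilobase uses the longest GENCODE 29 transcript, which may not be the one expressed. The alternatives were DESeq2's size factors, library size alone, DESeq2 1.42.0, limma voom (limma 3.58.1), 2 other filters on counts, the replicate number as a block, a correction for GC content by a lowess trend (span 0.4) for the 96.2% of tested genes with a known GC content, both together, each library left out and a threshold of 0.10. On simulated data for this comparison, edgeR run on 13310 genes recovered 66 of 66 genes changed 4-fold, 44 of 67 changed 2-fold and 12 of 67 changed 1.5-fold. It also called 7 unchanged genes. The simulated counts were independent and held no GC trend, unlike these libraries, so recovery in the real data may differ. Changes were set only in genes above a minimum mean CPM, which TWIST1 and TIMP3 do not reach. The recovery therefore does not cover genes as low as these. RefSeq windows and loci are on GRCh38.p14, the assembly that hg38 also denotes, and 25 of the 33 genes overlap another RefSeq gene, so that their reads may be shared. The genes and lists were chosen with earlier results of these data known. The named genes are all listed genes, PSME4, up to 4 genes of each wider list past the threshold, and markers that bear on the identity of the cells. Outside that rule, TPM3, TPM4 and SRF of the wider lists are also named, although they did not pass.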

Additional observations from a re-analysis of the deposited data

How the results depend on the processing

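Of 32 tested genes 3 were higher and 4 lower, and in the alternatives that used all 4 libraries the counts ran from 2 to 4 higher and from 3 to 6 lower. With 1 library left out they were 0 to 2 higher and 0 lower (edgeR, with 7 to 10 of the genes at an unadjusted p under 0.05), and a group with 1 library is then assumed to vary like the other group. For the wider lists, 8 higher and 1 lower, the counts were 0 to 4 higher and 0 lower with 1 library left out, and 14 higher and 4 lower at a threshold of 0.10. The lower count was 2 with the replicate block, 2 after the GC correction, 3 with both and 2 by DESeq2. Replicate numbers in the titles are not said to mark a shared culture or day, and same-numbered libraries did not deviate together (correlation across genes −0.018), so the block gives no pairing; with it 3 of the 32 genes were higher and 5 lower. Genes that changed sign were all short of the threshold. After the GC correction, alone and with the replicate block, these were ZEB1 (0.16 and 0.16), TAGLN2 (−0.073 and −0.079), FN1 (0.031 and 0.044), TIMP2 (−0.016 and −0.017) and PLAUR (−0.044 and −0.043), and with library size alone COL5A1 (0.031). With 1 library left out, ranges that crossed 0 were −0.31 to 0.14 for ZEB1, −0.019 to 0.35 for TAGLN2, −0.046 to 0.047 for COL5A1, −0.46 to 0.14 for COL6A1, −0.063 to 0.32 for COL12A1, −0.23 to 0.036 for FN1 and −0.17 to 0.0044 for TGFBI. The cause was not tested for any of these. DESeq2 gave no adjusted p for TWIST1 or TIMP3, and neither had enough counts for the filter of 50 counts in 2 libraries. At the depth of these libraries 3 counts correspond to 0.197 CPM in each PSME4 KD library and to 0.26 and 0.258 CPM in control KD libraries 1 and 2, for counting error only.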

Other observations

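Ratios of read counts between related genes within each library, chosen after their values were seen and given as a description with no test, set the fibrillar collagens and the tropomyosins apart. COL11A1 had 0.758 and 0.932 counts per COL5A2 count in PSME4 KD libraries 1 and 2, against 0.273 and 0.301 in control KD libraries 1 and 2, a ratio 2.93 times as high in PSME4 KD by the geometric means. COL1A1 had 0.126 and 0.166 counts per COL5A2 count in PSME4 KD, against 0.066 and 0.07 in control KD, which is 2.13 times as high. TPM2 had 0.234 and 0.194 counts per TPM1 count in PSME4 KD, against 0.112 and 0.0967 in control KD, which is 2.05 times as high. For these 3 pairs the groups did not overlap. A ratio within a library does not depend on the scaling between libraries, and it shows unequal change, not which of the genes of a pair changed. The ratios are not corrected for GC content, which was 61.1% for COL1A1, 47.3% for COL11A1, 47.9% for COL5A2, 55.3% for TPM2 and 45.9% for TPM1. After the GC correction the edgeR log2 fold changes were 0.49 for COL1A1, 1.19 for COL11A1, −0.37 for COL5A2, 0.27 for TPM2 and −0.55 for TPM1.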
